A study of Caenorhabditis elegans with 10 samples.

Results

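The accessible regions described here are the ATAC-seq peaks of chromosome X of Caenorhabditis elegans, taken as every peak that the deposited lists place on that chromosome. They number 11229 of the 55893 peaks in the 3 stage lists, with 5690 of 27694 in the early embryo, 2730 of 13040 in larval stage 3 (L3) and 2809 of 15159 in the young adult. The 5 autosomes hold 44654 peaks and serve as background, and the mitochondrial genome holds the other 10. ATAC-seq finds open chromatin with a transposase that cuts accessible DNA and leaves sequencing adapters in it. The study sampled the wild-type strain N2 at each stage in 3 replicates. Embryos were freed by bleaching from egg-laying adults, L3 animals were taken 36 h and young adults 57 h after the egg lay, and 1 further library came from purified genomic DNA as input. No group carries a mutation, a transgene or a drug treatment. Nuclei came from whole worms, so a change inside cells and a change in which cells the animal holds cannot be told apart.

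Each stage is 1 list that the authors made over its replicates, so no spread between replicates exists for any value below. Intervals are 95% intervals of counting error, which treat peaks as independent. Where the range over the 5 autosomes is given, it is the spread between chromosomes. The lists hold no reads. The study's library table has the early embryo sequenced deepest and L3 least, so sites without a peak in L3 or young adults may be present below detection. Within a list, X and the autosomes come from the same libraries.

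As background, worm hermaphrodites have a pair of X chromosomes and males have a single one, and in the somatic cells of hermaphrodites a condensin-like dosage compensation complex is loaded onto X at recruitment sites, spreads along it and lowers its transcription. X in those cells carries more of the histone mark H4K20me1 than the autosomes. In the germ line X is largely silent, and few genes with germline-specific expression lie on it. The arms of worm autosomes are richer in repeats, recombination and heterochromatin marks than their centres, and this contrast is weaker on X.

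Chromosome X also carries 4 gene regions from the study's list of putative regulatory regions. The study chose its putative regulatory regions for large differences in accessibility between stages in these same data. Stage differences at them are therefore a result of that choice and are given only as a description. daf-12 encodes the nuclear hormone receptor that binds dafachronic acids and controls the choice of the dauer larva and developmental timing. nhr-25 encodes a conserved nuclear receptor needed for the epidermis and for molting, jmjd-3.1 encodes a demethylase of histone H3 lysine 27, and swip-10 encodes a metallo-beta-lactamase domain protein that acts in glia. The primers that the study designed to clone the swip-10 and nhr-25 regions are shown because they are the designed sequences tied to X peaks that differ between stages. They are given 5′ to 3′ in lower case with no part capitalized, and only the bases after the cloning site are printed.
swip-10 forward: ttgaaaatctatccaatgtagtgttg
swip-10 reverse: ttgttacaaaagattcctgcgtta
nhr-25 forward: tctacaaagggcgtttttcc
nhr-25 reverse: ttgatcccttccactgttcc
The swip-10 primers have 26 and 24 bases with 30.8% and 33.3% G and C, and both nhr-25 primers have 20 bases, with 45.0% and 50.0% G and C.

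At swip-10, accessibility was listed in the early embryo and L3 and not in the young adult. The early embryo had peaks at chrX:2116467-2116680 (ce10) and chrX:2116762-2116944, with fold enrichments of 1.88 and 2.34 over the local background of that list. They stood at percentiles 31.5 and 64.7 of fold, where 100 is the strongest peak of the list. The 2 L3 peaks, chrX:2116353-2116706 and chrX:2116707-2117003, reached folds of 6.22 and 4.78 and percentiles of 86.9 and 77.1. Both sites thus stood higher in the L3 ranking than in that of the early embryo. The young adult list held 0 peaks there.

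Inside the nhr-25 region the L3 list alone held a peak, chrX:13014304-13014628, with a fold of 2.68 at percentile 37.6. Counted within 5 kb of the region, the early embryo had 5 peaks (highest fold 3.34), L3 had 2 (3.19) and the young adult 0. At jmjd-3.1 the early embryo peak chrX:8575917-8576173 had a fold of 2.49 at percentile 70.4, L3 had 0 peaks in the region, and the young adult peak chrX:8575917-8576151 had a fold of 3.07 at percentile 59.6. Within 5 kb of the jmjd-3.1 region, L3 had 1 peak, with a fold of 2.86, and the early embryo and young adult had 4 and 2. A peak in L3 alone at nhr-25, and none in L3 at jmjd-3.1, were thus seen only in the regions themselves. In the surroundings the young adult still had 0 peaks at nhr-25, and L3 still had the fewest at jmjd-3.1.

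At daf-12 every list held peaks, and the early embryo, L3 and young adult had 2, 2 and 3 of them. The main site changed place within the lists. Its early embryo peak, chrX:10637410-10637756, had a fold of 1.92 at percentile 35.7. In L3 the peak chrX:10637376-10638198 had a fold of 9.15 at percentile 95.7, and in the young adult chrX:10637360-10637770 had a fold of 8.07 at percentile 95.4. The neighbouring site, chrX:10636997-10637264 in the early embryo, moved less, with percentiles of 72.7, 73.9 and 83.1 over the same stages. The peak chrX:10637771-10638173 of the young adult, with a fold of 2.12, lies within the wide L3 peak.

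Chromosome X was the most densely covered chromosome in the early embryo and L3 and lost that place in the young adult. It held 321 peaks per Mb in the early embryo (313 to 330, exact Poisson interval), against 267 on the autosomes (263 to 270.1), where single autosomes lay between 224 on V and 311 on II (303 to 320.4), whose interval overlaps that of X. In L3 it held 154 per Mb (148 to 160.0), against 125 on the autosomes (123 to 127), with a range of 107 on V to 141 on III. In the young adult it held 159 per Mb (153 to 165), against 149.6 on the autosomes (147 to 152), and III and I, at 167 each, were denser, while II, at 159, had about the same density. The ratio of X to autosomes was 1.20 (1.17 to 1.24), 1.23 (1.18 to 1.29) and 1.06 (1.02 to 1.10) in the early embryo, L3 and young adult. Against 17.7% of the nuclear length, X carried 20.5% of the early embryo list, 20.9% of the L3 list and 18.5% of the young adult list.

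**Figure D1:**
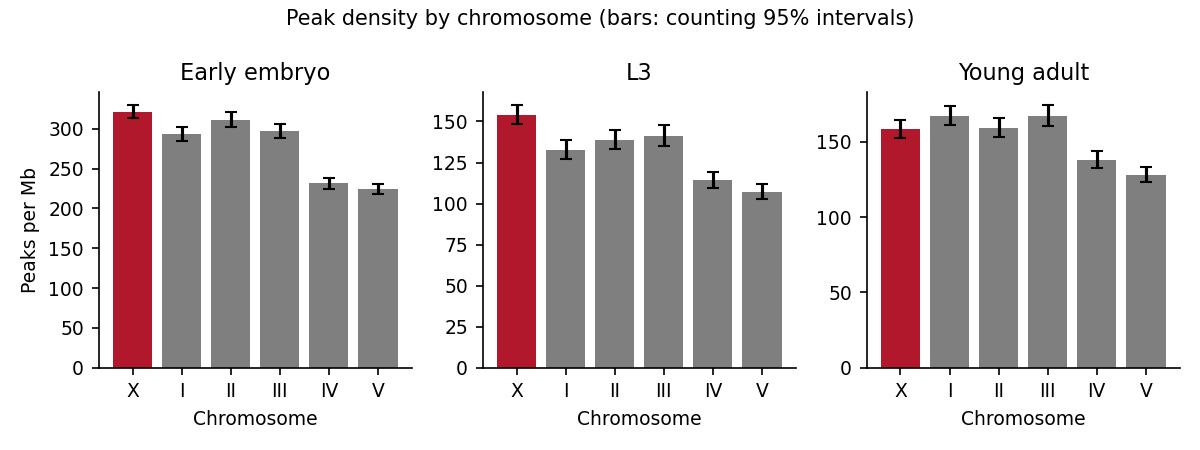
Peaks per Mb of each chromosome in the early embryo, L3 and young adult lists, with X at the left of the autosomes. Bars are densities and error bars exact Poisson 95% intervals. X stands above every autosome in the early embryo (321 peaks per Mb) and L3 (154) and below III and I in the young adult (159).

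The protein-coding genes of X number fewer for its length, so the contrast was larger per gene. X had 2.08, 1.00 and 1.03 peaks per annotated protein-coding gene in the early embryo, L3 and young adult, against 1.28, 0.598 and 0.716 on the autosomes. Peaks covered 8.59%, 4.94% and 5.04% of X in the 3 stages, against 6.95%, 3.88% and 4.64% of the autosomes. Gene numbers come from another genome build than the peaks and were used only as counts per chromosome.

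Peaks found in 1 stage were over-represented on X in the early embryo and L3 and under-represented in the young adult. A peak counts as found in 1 stage when no peak of either other list overlaps at least 0.5 of it or is overlapped by it to that extent. In the early embryo, 3068 X peaks (53.9%, 52.6 to 55.2, exact binomial interval) were found in that stage alone, against 50.1% of autosomal peaks and 50.9% of the whole list. The difference was 3.79 percentage points (2.34 to 5.25, Newcombe interval), and X lay above all 5 autosomes (47.8% to 53.0%), of which the highest, II, falls within the interval of X. In L3, 350 X peaks (12.8%, 11.6 to 14.1) were found in L3 alone, against 10.4% of autosomal peaks and 10.9% of the list, a difference of 2.40 points (1.06 to 3.83). X again lay above the autosomes (8.60% to 12.4%), and the highest of them, V, falls within its interval. In lists of equal length by fold, with the 13040 strongest peaks of each stage, the L3 difference was 1.37 points (-0.358 to 3.15), an interval that includes 0.

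The sign turned in the young adult list. There, 404 X peaks (14.4%, 13.1 to 15.7) were found in that stage alone, against 18.0% of autosomal peaks and 17.3% of the list, a difference of -3.63 points (-5.06 to -2.13), and X lay below all autosomes (16.7% to 19.1%). Young adult peaks of X were more often shared with L3, at 68.0% (66.2 to 69.7), against 59.3% to 61.6% on single autosomes and 61.9% of the list. They were found in all stages in 56.5% (54.6 to 58.3), against 49.7% on the autosomes and 50.9% of the list, a difference of 6.79 points (4.75 to 8.81).

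X and the autosomes were closer for peaks found in all stages in the early embryo and L3 lists. In the early embryo, 1643 X peaks (28.9%) had counterparts in both other lists, against 29.3% on the autosomes and 29.2% of the list, a difference of -0.412 points (-1.72 to 0.920). In L3 it was 1613 X peaks (59.1%), against 60.3% on the autosomes and 60.0% of the list, a difference of -1.18 points (-3.26 to 0.882). Both intervals include 0, and the L3 sign turned in lists of equal length, at 0.951 points by −log10 q and 0.570 by fold.

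Sites shared by the early embryo and young adult but missing from L3 were also scarce on X. Of the early embryo peaks of X, 519 (9.12%, 8.39 to 9.90) had a counterpart in the young adult alone, against 11.9% to 12.8% on single autosomes and 11.8% of the list. Seen from the young adult, 496 X peaks (17.7%, 16.3 to 19.1) had a counterpart in the early embryo alone, against 20.5% to 22.1% on single autosomes and 20.8% of the list. Peaks shared by the early embryo and L3 alone made up 8.08% of early embryo peaks on X, 8.10% of the list and 7.48% to 8.70% of single autosomes.

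Joining counterparts over the lists gave 6583 regions on X and 25753 on the autosomes, which puts the 7 stage patterns side by side. Regions of the early embryo alone made up 46.6% of X and 42.8% of autosomal regions (43.6% of all regions), and regions of L3 alone 5.32% and 4.17% (4.40% of all). Regions of the young adult alone made up 6.14% of X and 8.64% of autosomal regions (8.13% of all), and those of the early embryo and young adult 7.40% and 9.96% (9.44% of all). X was above every autosome for the first 2 patterns, with the highest autosome inside its interval each time, and below every autosome for the other 2, with the lowest autosome outside it. Regions of the early embryo and L3 made up 6.58% of X and 6.41% of autosomal regions (6.45% of all), those of L3 and young adult 4.69% and 4.89% (4.85% of all), and regions of all 3 stages made up 23.3% of X and 23.1% of autosomal regions (23.1% of all).

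Taken per Mb, all regions together were 1.19 times as dense on X as on the autosomes (1.16 to 1.22), and the patterns lay on both sides of that ratio. Regions of L3 alone were 1.52 times as dense on X (1.34 to 1.71), with 19.8 per Mb on X and 13.0 on the autosomes. Regions of the early embryo alone were 1.296 times as dense (1.24 to 1.35). Regions of the young adult alone reached 0.846 times the autosomal density (0.759 to 0.941) and those of the early embryo and young adult 0.884 times (0.801 to 0.975). The other patterns lay near the ratio of all regions, at 1.22 for the early embryo and L3 (1.096 to 1.36), 1.14 for L3 and young adult (1.01 to 1.295) and 1.20 for all 3 stages (1.13 to 1.27).

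**Figure D2:**
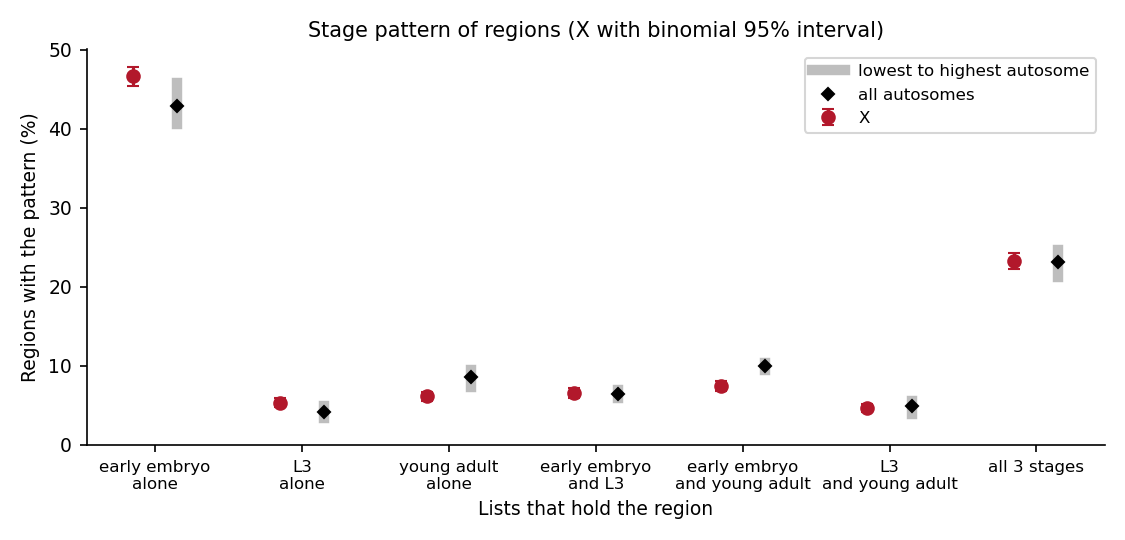
Percentage of regions with each of the 7 stage patterns, for X (points with exact binomial 95% intervals) and the autosomes (diamonds for all of them, grey bars from the lowest to the highest autosome). X lies above the autosomes for the early embryo alone (46.6%) and L3 alone (5.32%), and below them for the young adult alone (6.14%) and for the early embryo with the young adult (7.40%).

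Weak peaks were more often found in 1 stage than strong ones, so X and autosomes were also set side by side within 10 equal parts of each list, from part 1 with the highest fold to part 10 with the lowest. In part 1 of the early embryo list, 13.4% of X peaks and 14.0% of autosomal peaks were found in that stage alone, and in part 10 it was 75.5% and 70.7%. In parts 7, 8 and 9 of the L3 list, 23.0%, 26.2% and 26.6% of X peaks were found in L3 alone, against 15.2%, 16.6% and 15.6% of autosomal peaks. X was below the autosomes in each of the first 5 parts of that list, so the L3 excess lay among weaker peaks. Young adult peaks of X were less often found in 1 stage than autosomal peaks in each of the first 9 parts, and in part 10 the shares were 41.2% on X and 39.7% on the autosomes. With the X shares weighted to the mix of parts of the autosomes, 55.7% of early embryo, 13.8% of L3 and 15.0% of young adult peaks of X were found in 1 stage, against 50.1%, 10.4% and 18.0% of autosomal peaks. Weighted in the same way, 26.8%, 57.0% and 54.8% of X peaks were found in all stages, against 29.3%, 60.3% and 49.7% of autosomal peaks, so that X was below the autosomes in the early embryo and L3 and above them in the young adult.

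The strongest X peaks found in 1 stage differed in rank between stages. In the early embryo they were chrX:16882537-16883001, chrX:394778-395120 and chrX:16240683-16240985, with folds of 6.61, 6.42 and 6.16 and ranks 367, 417 and 490 of 27694. In L3 they were chrX:13754419-13754811, chrX:8986337-8986871 and chrX:8036213-8036534, with folds of 5.61, 4.91 and 4.83 and ranks 2166, 2845 and 2943 of 13040. In the young adult they were chrX:2422112-2422464, chrX:3562755-3563099 and chrX:1837675-1838046, with folds of 4.78, 4.58 and 4.58 and ranks 2503, 2740 and 2747 of 15159. Part 1 of the L3 and young adult lists held 0% such peaks among its X peaks, which numbered 322 and 305. Such peaks were also rare among the autosomal peaks of part 1, at 0.102% in L3 and 0.495% in the young adult.

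In the early embryo and L3 the strongest peaks lay on X more often than its share of the list. X held 27.1% of part 1 of the early embryo list (25.5 to 28.8), against 20.5% of the list, and 24.7% of part 1 in L3 (22.4 to 27.1), against 20.9%. For the young adult it held 20.1% of part 1 (18.1 to 22.2), against 18.5% of the list, which the interval includes. At the weak end X held 19.7%, 17.4% and 17.6% of part 10 in the early embryo, L3 and young adult. The early embryo excess was limited to part 1, as part 2 held 19.5%, while the L3 share was 21.3% or more over the first 7 parts.

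**Figure D3:**
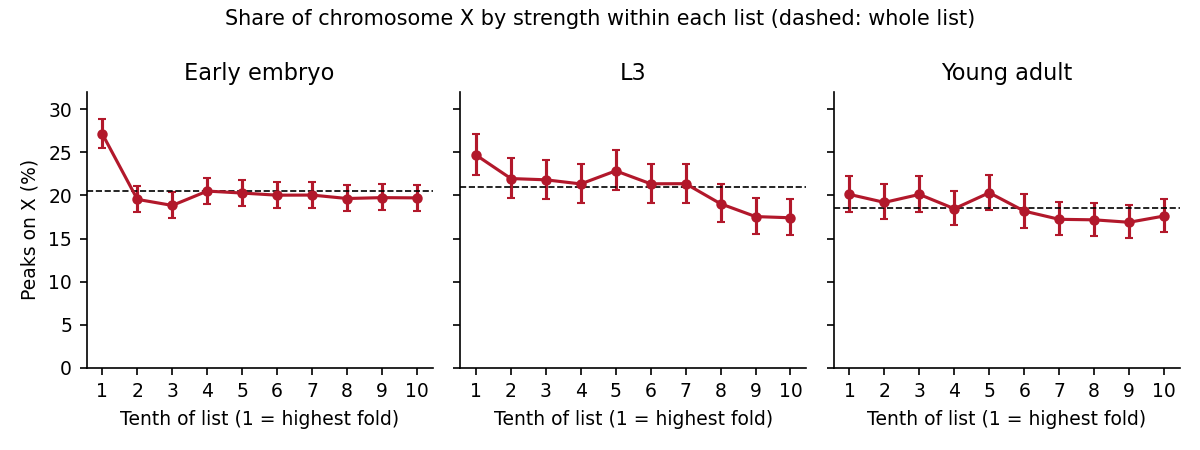
Percentage of peaks on X in each of 10 equal parts of the early embryo, L3 and young adult lists, ordered from the highest fold, with exact binomial 95% intervals. Dashed lines give the share of X in the whole list (20.5%, 20.9% and 18.5%). Part 1 of the early embryo list (27.1%) stands above the other parts, and L3 declines to 17.4%.

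The median percentile of fold on X was 51.7, 53.4 and 52.9 in the early embryo, L3 and young adult, against 49.5, 49.1 and 49.3 on the autosomes. The differences were 2.24 points (0.767 to 3.84), 4.36 (2.58 to 6.37) and 3.58 (1.66 to 5.47). Single autosomes came close to X, with IV at 51.3 in the early embryo and III at 51.7 in L3 and 52.0 in the young adult. Among peaks found in all stages the difference was 5.06 points (2.34 to 7.00) in the early embryo, 8.09 (5.58 to 10.9) in L3 and 1.62 (-0.197 to 3.83) in the young adult. For such young adult peaks III, at 70.3, stood above X, at 68.7. Among peaks found in 1 stage it was 2.11, -0.556 and -0.383 points over the same stages, and the last 2 intervals include 0.

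The 5 strongest X peaks of each list were all found in all stages. Within part 1 this held for 75.1%, 96.9% and 96.7% of X peaks in the early embryo, L3 and young adult. The autosomal shares were similar, at 75.6%, 95.1% and 92.6%. The early embryo peak chrX:2368162-2369137 had the highest fold on X in its list, 10.4 at rank 12 of 27694, and its strongest counterpart was at rank 753 of the L3 list and at rank 415 of the young adult list. The peak chrX:16726670-16727188 was at rank 13 in the early embryo, and its counterparts, which begin at the same base, were at rank 14 in L3 and rank 13 in the young adult. Its rank was thus nearly the same in all 3 lists. The others in the early embryo were chrX:2536269-2536890 (fold 10.3), chrX:17714326-17714622 (9.66), which lies at the right end of the chromosome, and chrX:16961153-16961742 (9.54).

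The strongest X peak of both postembryonic lists was a single site. Its early embryo peak, chrX:2401765-2402390, had a fold of 9.19 at rank 39, the L3 peak, chrX:2401800-2402364, a fold of 20.5 at rank 4, and the young adult peak, chrX:2401833-2402380, a fold of 19.0 at rank 8. After chrX:16726670-16727232, the L3 list continued with chrX:2885216-2885769 (fold 17.2), chrX:535734-536237 (15.8) and chrX:13700510-13701099 (15.5). Over the early embryo, L3 and young adult lists the first of these ranked 38, 17 and 350, the second 136, 24 and 170, and the third 258, 29 and 325. All of them stood lower in the young adult ranking than in that of L3. They were picked for their L3 rank, which favours a lower place in any other list. The young adult list continued after chrX:16726670-16727205 with chrX:16961179-16961742 (fold 15.4, rank 32), chrX:3127634-3128103 (15.1, rank 39) and chrX:593179-593545 (14.6, rank 48), whose L3 counterparts ranked 39, 31 and 60.

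For peaks with counterparts in all lists, the rank on X moved differently from that on the autosomes between L3 and the young adult. The median change of percentile, young adult minus L3, was -0.288 points over 1586 X peaks (-0.707 to 0.130), against 2.98 points over 6133 autosomal peaks (2.63 to 3.41) and 2.44 to 3.97 on single autosomes. The difference between X and autosomes was -3.27 points (-3.87 to -2.72). A higher percentile in the young adult than in L3 was found for 48.4% of these X peaks and for 62.6% of autosomal ones.

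For L3 minus early embryo the median was below 0 on all chromosomes, at -6.48 points over 1613 X peaks and -10.4 points over 6212 autosomal peaks (-13.9 to -8.81 on single autosomes). This contrast of 3.94 points (2.26 to 5.49) did not hold with lists of equal length, where it was -0.985 points. Equal lists hold the 13040 peaks of each stage with the highest −log10 q. The contrast between L3 and young adult kept its sign with equal lists, at -2.35 points. For young adult minus early embryo the median change was -6.64 points on X and -4.41 on the autosomes, a difference of -2.23 (-3.45 to -0.950). The early embryo list is the longest, with 27694 peaks against 13040 in L3 and 15159 in the young adult. A lower percentile in a later list is therefore not by itself a loss of accessibility.

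**Figure D4:**
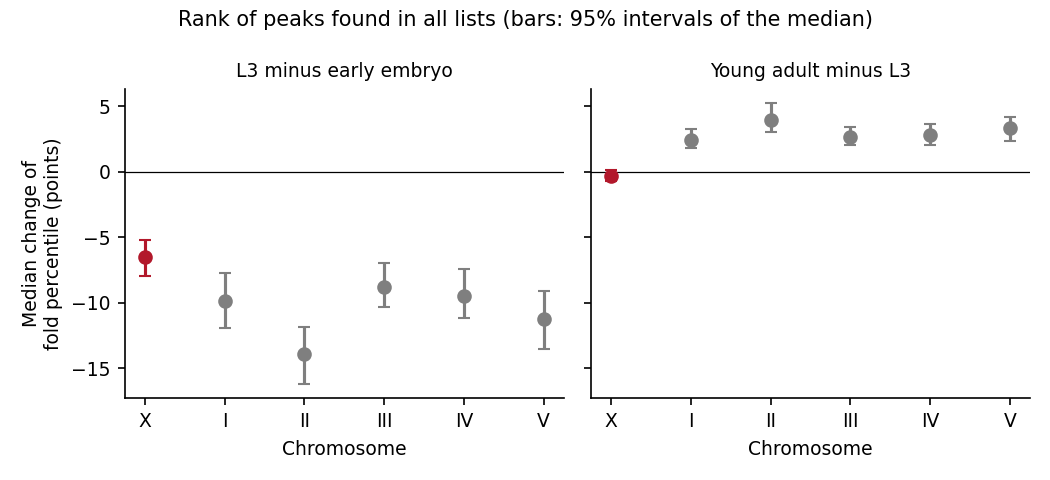
Median change of the fold percentile of peaks found in all lists, by chromosome, for L3 minus early embryo and young adult minus L3, with 95% order-statistic intervals. From L3 to young adult X is at -0.288 points and each autosome between 2.44 and 3.97.

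Single sites moved far more than these medians. The largest gain between the early embryo and L3 was at chrX:8276329-8276646, with percentiles of 4.46, 91.8 and 79.2 in the early embryo, L3 and young adult, and its early embryo fold was 1.54. The next were chrX:1871015-1871355, at percentiles 4.85, 90.7 and 75.2, and chrX:14744370-14744835, at 3.59, 85.5 and 64.0. All of these were lower in the young adult than in L3 and well above their early embryo places. They were picked for a high place in L3 after a low one, which favours such an order. The largest losses were at chrX:17177152-17177399, with percentiles of 98.0, 5.55 and 52.2 over the same stages, at chrX:4504013-4504365, with 92.2, 0.0115 and 42.6, and at chrX:7478305-7478494, with 96.3, 9.83 and 13.8. The losses were picked for a low place in L3 after a high one, which favours a higher place in the young adult. Of these losses, only the last stayed near its L3 place in the young adult. Its early embryo peak, chrX:7478367-7478723, also overlaps the L3 peak chrX:7478495-7479052, at percentile 92.2 of that list. The percentile 9.83 is thus that of the weaker of the L3 peaks there.

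Between L3 and the young adult the largest gain was at chrX:421852-422154, with percentiles of 17.9, 10.2 and 88.4 in the early embryo, L3 and young adult. The next were chrX:8151154-8151717, with 15.6, 9.11 and 82.4, and chrX:13345774-13346279, with 80.5, 6.64 and 78.8. The last of these had a high place in both the early embryo and young adult. These gains were picked for a low place in L3 and the losses for a high one, which favours a less extreme place in the early embryo. The largest losses were at chrX:7478718-7478964, with 12.4, 92.2 and 7.99, at chrX:2090378-2090575, with 57.7, 90.2 and 7.93, and at chrX:2793919-2794195, with 35.6, 79.7 and 5.66. Each of these young adult peaks covers only part of a wider L3 peak, namely chrX:7478495-7479052, chrX:2090377-2090893 and chrX:2793537-2794200. Percentiles there can thus belong to parts of a site. For the first, 12.4 is the place of the early embryo peak chrX:7478724-7478958. The early embryo peak chrX:7478367-7478723, at percentile 96.3, overlaps the same L3 peak. The peak chrX:7478718-7478964 lies close to the L3 peak chrX:7478305-7478494. At that place the early embryo peak chrX:7478367-7478723 had a fold of 5.10 and the L3 peak chrX:7478495-7479052 a fold of 7.65, and the young adult peaks had folds of 2.03 and 1.91.

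Along the chromosome, peaks were denser on the arms of X than in its centre, which is taken from 6.14 to 12.48 Mb. The left arm, centre and right arm held 319, 299.8 and 349 peaks per Mb in the early embryo, 153, 145 and 166 in L3, and 161, 143 and 174 at the young adult stage. The right arm was thus densest in each list. The ratio of centre to arms was 0.900 (0.852 to 0.952), 0.914 (0.843 to 0.990) and 0.854 (0.789 to 0.925) in the early embryo, L3 and young adult. With the middle of 3 equal parts as centre, the L3 ratio on X was 0.945 (0.871 to 1.02), an interval that includes 1. On the autosomes, with that centre, the ratio was 0.952, 1.09 and 0.991. X lay within the range of single autosomes in the early embryo (0.866 on II to 1.14 on III) and below it in L3 (0.987 to 1.27) and the young adult (0.886 to 1.04). The lowest autosome falls within the interval of X in both of these lists, IV in L3 and II in the young adult.

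Stage membership also varied along X. Of the young adult peaks, 10.7% of right arm peaks were found in that stage alone (8.81 to 12.9), against 16.8% on the left arm (14.5 to 19.2) and 15.5% in the centre (13.2 to 18.0). In the early embryo the shares were 51.5% on the right arm, 54.2% on the left arm and 56.0% in the centre, and in L3 11.7%, 12.9% and 13.8%, with intervals that overlap one another in each of these lists.

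In blocks of 500 kb, of which 35 fit on X, the early embryo list held 86 to 209 peaks (median 160), L3 26 to 109 (median 79) and the young adult 50 to 113 (median 79). Density was more even on X than on the autosomes as a whole. The coefficient of variation over blocks was 17.2%, 19.0% and 18.1% on X in the early embryo, L3 and young adult, against 27.5%, 32.9% and 28.8% over the 162 autosomal blocks. Single autosomes did not all vary more than X, as II was more even in the early embryo, at 16.3%, and I had the same rounded value in the young adult, 18.1%. Between lists, block counts on X went together, and L3 had Pearson correlations of 0.595 with the early embryo and 0.671 with the young adult (Spearman 0.409 and 0.704). The early embryo list had one of 0.584 with the young adult list (Spearman 0.483). These describe 35 blocks of 1 chromosome, whose gene content and sequence the lists share.

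**Figure D5:**
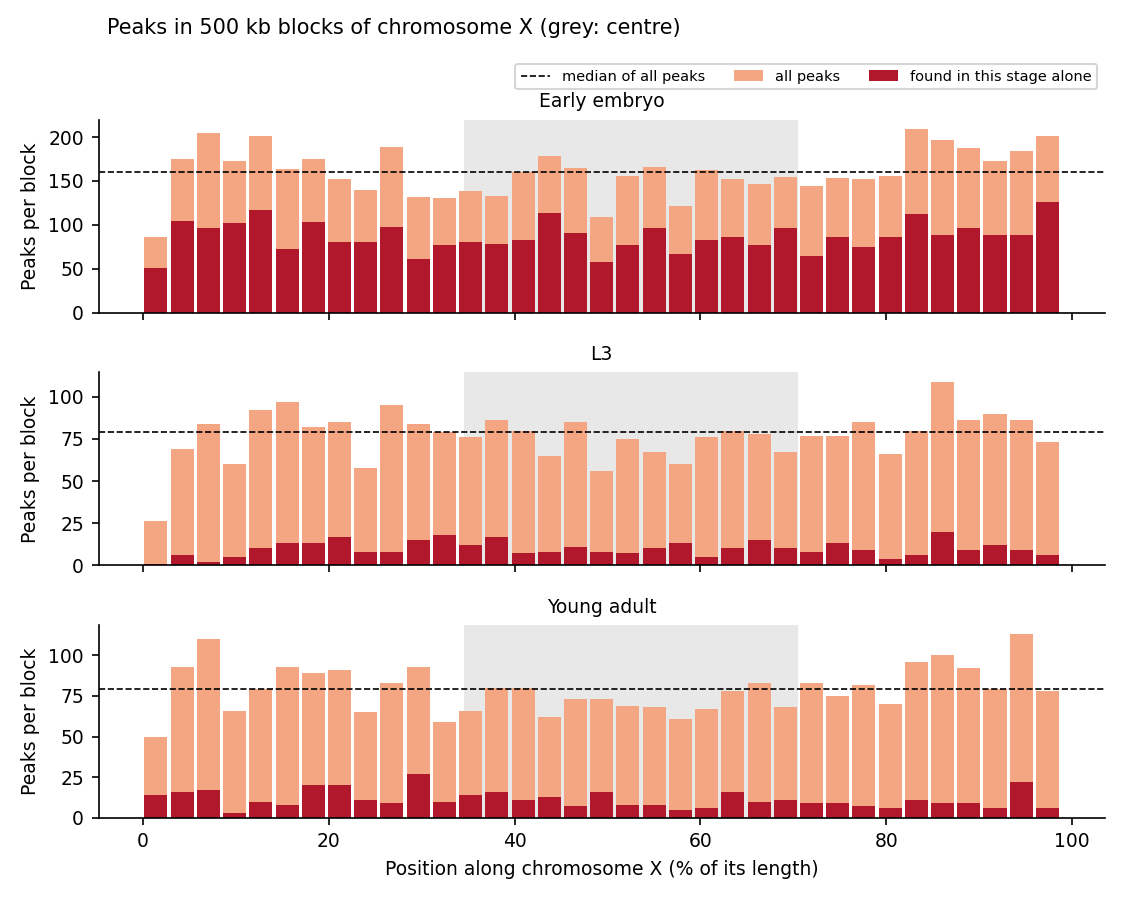
Peaks per 500 kb block along X, as a percentage of its length, in the early embryo, L3 and young adult lists. Pale bars are all peaks, dark bars peaks found in that stage alone, the dashed line is the median of 160, 79 and 79 peaks, and grey marks the centre. The first block has the fewest peaks in each list (86, 26 and 50).

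The block with fewest peaks was the first in each list, chrX:1-500000, with 86, 26 and 50 peaks. The richest were chrX:14500001-15000000 in the early embryo (209 peaks), chrX:15000001-15500000 in L3 (109) and chrX:16500001-17000000 in the young adult (113), all on the right arm. The share of peaks found in 1 stage was highest in chrX:7500001-8000000 in the early embryo (113 of 178 peaks, 63.5%), chrX:5500001-6000000 for L3 (18 of 79, 22.8%) and chrX:5000001-5500000 for the young adult (27 of 93, 29.0%). These last 2 blocks are neighbours on the left arm. Their intervals, 14.1 to 33.6 and 20.1 to 39.4, are wide. Over the whole lists the share was 50.9%, 10.9% and 17.3% in the early embryo, L3 and young adult. Each block named was picked as the highest of 35, and some autosomal blocks stood higher. Examples are chrV:16000001-16500000 in the early embryo (68.2%), chrV:3000001-3500000 in L3 (25.6%) and chrI:13500001-14000000 in the young adult (47.5%).

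The longest stretches without a peak in any list were also at the left end, chrX:219855-300331 (80.5 kb), chrX:60688-117065 (56.4 kb) and chrX:117363-170105 (52.7 kb). X had 50 peak-free stretches over 20 kb, against 60 to 147 on single autosomes. The union of the lists covered 11.1% of X, against 7.80% to 10.5% of single autosomes.

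Neighbouring peaks were spaced more evenly on X than on the autosomes. Summits under 1 kb apart made up 41.9%, 27.4% and 28.1% of neighbouring pairs on X in the early embryo, L3 and young adult, against 43.8%, 29.5% and 33.1% on the autosomes. The share under 1 kb was still lower on V in the early embryo (41.5%) and on I in L3 (27.1%). Distances over 20 kb were also rarer on X, at 1.28%, 7.81% and 6.70%, against 2.87%, 10.6% and 8.18%. Chromosome I was lower than X in the young adult, at 6.28%. The median distance was 1394, 3242 and 3158 bp on X, against 1342, 3199 and 2674.5 bp on the autosomes, so it differed mainly in the young adult, by 1.18 times (1.08 to 1.29). This difference shrank to 1.04 times (0.955 to 1.124) when directly adjoining peaks were joined and to 1.10 times (0.987 to 1.21) in equal lists by fold, and both intervals include 1. Adjoining peaks, which the authors split between summits, made up 11.5%, 12.1% and 13.3% of X peaks, against 13.4%, 12.8% and 15.9% of autosomal ones.

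The longest runs of adjoining peaks, counted in peaks, are given as a description. Each was picked for the most peaks in its own list, which favours fewer in the other lists. In the early embryo chrX:10945618-10947441 was made of 7 peaks with a highest fold of 2.66, where L3 and young adult had 3 each. The longest L3 run, chrX:17420879-17422080, had 5 peaks, where the early embryo had 1 and the young adult 4. In the young adult chrX:12104545-12105972 had 5 peaks with a highest fold of 5.59, where the early embryo had 3 and L3 had 2. The young adult run chrX:11603904-11605343 also had 5 peaks, where the early embryo and L3 had 3 each.

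Peaks of X were slightly wider, with medians of 245, 292 and 294 bp in the early embryo, L3 and young adult, against 239, 285 and 285 bp on the autosomes. The differences were 6 bp (3.76 to 9.16), 7 bp (2.53 to 11.5) and 9 bp (4.88 to 14). Single autosomes came closer to X, with II at 241 bp in the early embryo and I at 290 bp in L3. In the young adult II, III and IV had medians of 286 bp. Peaks found in all stages had medians of 297, 330 and 322 bp on X, against 282, 308 and 316 bp on the autosomes, with differences of 15 bp (9.61 to 21.7), 22 bp (12.5 to 30.5) and 6 bp (0.343 to 14.5). In the young adult III and IV came close to X for such peaks, at 321 bp each. Peaks found in 1 stage had medians of 222, 243.5 and 252 bp on X, against 219, 242 and 243 bp, and the intervals of those differences include 0.

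The widest X peaks, all found in all stages, were chrX:2879432-2880451, chrX:2368162-2369137 and chrX:16612117-16612968 in the early embryo, with 1020, 976 and 852 bp. In L3 they were chrX:2598446-2599420, chrX:13143842-13144806 and chrX:11472888-11473750, with 975, 965 and 863 bp. In the young adult they were chrX:9191681-9192741, chrX:13143847-13144812 and chrX:17479504-17480429, with 1061, 966 and 926 bp. The second of each was the same site in both postembryonic lists, where the early embryo had 3 peaks. The widest young adult peak had a fold of 7.86 at rank 753 and a counterpart of 497 bp in L3 at rank 5944 of 13040.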

How the data were processed

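ATAC-seq libraries of 3 stages, each in 3 replicates, and 1 input library were processed by the authors to 1 peak list per stage. Per the submitters' processing notes they used Bowtie2 2.1.0, Picard and ce10, and per the methods MACS called the peaks, which were masked for input signal and blacklisted regions. For each peak the deposited lists hold a fold enrichment (a ratio to local background), −log10 p and −log10 q values and a display score. The score and −log10 p were not used. Fold and −log10 q depend on depth and were used only within a list. No column of per-sample values was left out.

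Members are the peaks with X as chromosome. Chromosome length is the largest peak end in any list. Peaks were shared when the overlap reached 0.5 of either peak. Percentiles rank fold within a list. A peak that had several counterparts was compared with the strongest. Intervals of 95% are exact Poisson, exact binomial, conditional binomial for ratios, Newcombe for differences of shares, and order-statistic for medians, and no p-values were computed. The members named are the peaks in the study's X regions, the 5 strongest, the 3 strongest of a single stage and the 3 widest X peaks per list, the 3 largest gains and losses of percentile, the extreme 500 kb blocks (at least 20 peaks for shares), the 3 longest empty stretches and the longest run of adjoining peaks. Members, lists and rules were chosen with earlier results of these data known. Gene names were taken from the study's list and matched to a WBcel235 table, used for names and gene counts alone. No ce10 genome or annotation was used here.

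Scripts used pandas 2.3.3, scipy 1.17.1 and numpy 2.4.6 under Python 3.11.15, and plots matplotlib 3.10.9. Overlaps were checked against bedtools 2.31.1 for 6 ordered list pairs, with 0 peaks called differently, and the code was tested on simulated data.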

Additional observations from a re-analysis of the deposited data

How the results depend on the processing

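Of 153 alternative values, 131 stayed within the interval of the value reported, 21 moved outside it, and 1 turned the sign of a difference whose interval leaves out 0. Signs also turned for 7 values whose reported intervals include no difference, which are spacing in the early embryo and L3 and peaks of all stages in those lists (0.377 points in the early embryo with joined neighbours). For 4 values the interval came to include no difference, namely the L3 share of peaks of 1 stage (1.37 points, equal lists by fold), the L3 ratio of centre to arms (0.945, middle of 3 equal parts) and the young adult spacing ratio (1.10 with equal lists by fold and 1.04 with joined neighbours). Alternatives took peaks with −log10 q from 2 or 5 upwards, lists of equal length (13040 peaks, chosen by −log10 q or fold), neighbours joined, other overlaps, other centres, covered base pairs, genes in place of length and other block lengths. Those for the change of rank, and leaving out the first 500 kb of X, were chosen after seeing the data. Some of the 131 agreements were fixed in advance. The L3 list has 13040 peaks, so equal lists leave it whole, and its density, centre ratio, width, percentile and spacing could not move. The −log10 q minimum of 2 changed little, with an early embryo density ratio of 1.2046 against 1.2045. No paired analysis was possible because each list pools its replicates, and for the same reason leaving out replicates could not be run. Depth differs between the lists and was not matched.

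With equal lists by −log10 q, the density ratio of the early embryo was 1.29, the young adult difference in peaks of 1 stage -6.65 points, the differences in peaks of all stages -1.89 points in the early embryo and 0.951 in L3, and the early embryo ratio of centre to arms 0.848. With equal lists by fold, the density ratio of the early embryo was 1.26, the young adult difference in peaks of 1 stage -6.44 points and the early embryo difference in median percentile 4.67 points. Per gene, the density ratios were 1.63, 1.67 and 1.44 in the early embryo, L3 and young adult. The coefficient of variation along X was 21.7%, 24.6% and 25.2% in 250 kb blocks, and 12.9% in the early embryo and 11.9% in the young adult in 1 Mb blocks.

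For the change of rank, equal lists by −log10 q gave X minus autosomes as -0.985 points from early embryo to L3, which reverses the sign of the value reported, -2.35 from L3 to young adult and -4.34 from early embryo to young adult. Ranking by −log10 q gave -4.30 from L3 to young adult and -4.51 from early embryo to young adult. The cause of these shifts was not tested.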
